A study of Mus musculus with 2 samples.

Results

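Of the 43346 Ensembl genes in the deposited tables, 8 are described here: Pax2, Pax5, Pax8, Gbx2, Pax6, Sp8, Skor2 and Pcp2, transcription factors of the isthmus and early hindbrain together with genes of the young cerebellum. They were chosen by symbol, matched through the Ensembl gene ID without its version, and all 8 were found in both gene tables. Total RNA was sequenced from midbrain of B6NCrl mouse embryos, a C57BL/6 substrain, at embryonic day 15.5. There was 1 group of 2 libraries, replicate 1 made from a pool of 78 embryos and replicate 2 from a pool of 62, with males and females mixed in each pool. The labels name no mutation and no treatment. Each pool averages over its embryos, so the spread among single animals was not measured, and no library of isthmus, cerebellum or another age entered the comparison.

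The isthmus is the constriction between midbrain and hindbrain. In the early embryo its cells form an organizer that secretes Fgf8 and Wnt1 and patterns the midbrain in front of it and the cerebellum behind it. Otx2 marks the midbrain side and Gbx2 the hindbrain side, their mutual repression places the border, and Pax2, Pax5 and Pax8, 1 subfamily of paired box factors, act at the organizer itself. Purkinje cells, the output neurons of the cerebellar cortex, are born in the ventricular zone behind the organizer, and granule cells come from the rhombic lip.

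The libraries held 38966386 expected counts in replicate 1 and 40419493 in replicate 2. Of all genes, 35.4% reached 1 TPM (the authors' length-scaled transcript level) in both libraries, and the median of those genes was 17.0 TPM. For the labelled tissue, all 10 genes of a midbrain list reached 1 TPM in both libraries, with medians of 11.1 TPM in replicate 1 and 10.4 TPM in replicate 2. The homeobox gene Otx2, on the midbrain side of the border, stood at 66.35 TPM in replicate 1 and 66.1 TPM in replicate 2. Genes of regions in front of the midbrain were also present: all 8 of a thalamus and pretectum list and all 8 of a telencephalon list reached 1 TPM in both libraries, with the thalamic and pretectal factor gene Tcf7l2 at 618 TPM in replicate 1 and 588 TPM in replicate 2.

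Among the members, Pax6 and Gbx2 were the most abundant, near the median of expressed genes, and Pax2 and Skor2 the least. Pax6 and Gbx2 lay above 52.6% and 50.7% of the genes that passed 1 TPM in each library. Pax5 lay above 31.3% of them, Pcp2 above 16.1%, Pax8 above 14.3% and Sp8 above 12.2%. In all, 6 of the 8 members reached 1 TPM in both libraries, a share of genes that was 35.4% over all genes, while Pax2 and Skor2 stayed below 1 TPM in both. The median over the 8 members was 2.96 TPM. In bulk tissue a low level from few cells and a low level per cell cannot be told apart.

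**Figure D1:**
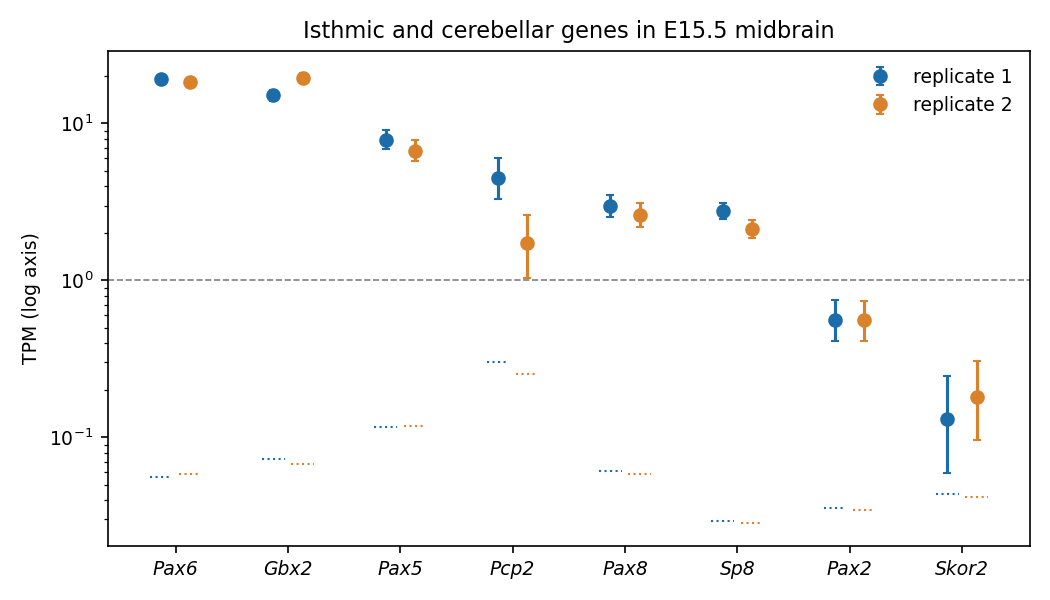
TPM of each member (log axis) in replicate 1 and replicate 2, with 95% Poisson intervals of the count as bars, the level of 3 counts as dotted lines and 1 TPM as a dashed line. Members run from Pax6 at 18.8 TPM on average to Skor2 at 0.155 TPM, and Pcp2 is the member whose libraries lie farthest apart.

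The order of the levels could be read only in part. By mean TPM it ran Pax6, Gbx2, Pax5, Pcp2, Pax8, Sp8, Pax2 and Skor2. Gbx2 lay above Pax5 in every library, as did Pax5 above Pcp2, Sp8 above Pax2 and Pax2 above Skor2. Pax6 and Gbx2 did not differ beyond their spread, since Pax6 had 1.26 times the TPM of Gbx2 in replicate 1 and 0.939 times in replicate 2. Pcp2 and Pax8 changed places as well, with Pcp2 at 1.51 times Pax8 in replicate 1 and 0.664 times in replicate 2, and the ranges of Pax8 and Sp8 overlapped.

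Pax2, Pax5 and Pax8 share most of the sequence by which they bind DNA, the paired box. The exon that holds the start of the paired box is shown for each because reads of these paralogs can be told apart only where they differ. The exon is 166 nt long in all 3 genes, and its sequences are from GENCODE M21 on mm10, with capitals at bases that differ from Pax2. The Pax2 exon lies at chr19:44760878-44761043 on the plus strand, the Pax5 exon at chr4:44697522-44697687 and the Pax8 exon at chr2:24444566-24444731, both on the minus strand.
Pax2 paired box exon: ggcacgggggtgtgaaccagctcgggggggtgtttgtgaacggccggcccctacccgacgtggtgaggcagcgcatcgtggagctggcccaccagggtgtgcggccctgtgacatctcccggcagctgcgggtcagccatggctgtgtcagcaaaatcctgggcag
Pax5 paired box exon: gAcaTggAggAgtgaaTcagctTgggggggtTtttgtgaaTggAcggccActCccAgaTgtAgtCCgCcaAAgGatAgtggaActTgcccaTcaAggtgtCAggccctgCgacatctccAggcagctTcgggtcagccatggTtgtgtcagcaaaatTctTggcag
Pax8 paired box exon: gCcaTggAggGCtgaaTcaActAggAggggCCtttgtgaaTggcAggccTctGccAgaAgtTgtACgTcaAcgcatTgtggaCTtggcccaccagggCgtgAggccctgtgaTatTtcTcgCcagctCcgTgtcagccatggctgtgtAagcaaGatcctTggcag
Pax5 was identical to Pax2 at 133 of the 166 bases (80.1%), Pax8 to Pax2 at 130 (78.3%) and Pax5 to Pax8 at 128 (77.1%). Over the protein-coding transcripts whose deposited length was that of the M21 model, the longest run that Pax2 and Pax8 shared exactly was 27 nt. For each of the other 2 pairs it was 17 nt, with the transcript Pax5-201 left out because its length differs. The posterior SD of the count, the authors' measure of uncertain read assignment, was 0 for Pax2 in both libraries, at most 0.509% of the count for Pax8 and at most 3.69% for Pax5.

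By TPM, Pax5 made up most of the RNA of the subfamily and Pax2 the least. Pax5 (chromosome 4, 44524757 to 44710487, minus strand) had 7.89 TPM in replicate 1 and 6.70 TPM in replicate 2 (mean 7.29 ± 0.841, SD, n = 2), from 204 and 171 counts. Pax8 (chromosome 2, 24420560 to 24475599, minus strand), which also directs thyroid and kidney development, had 2.98 TPM in replicate 1 and 2.62 TPM in replicate 2 (2.80 ± 0.255), from 147 and 134 counts. Pax2 (chromosome 19, 44756045 to 44837871, plus strand), the earliest of the 3 at the midbrain and hindbrain border, had 0.560 TPM in each library, from 47 counts in replicate 1 and 49 in replicate 2. Of the TPM summed over the 3 genes, Pax5 took 69.0% in replicate 1 and 67.8% in replicate 2, Pax8 26.1% and 26.5%, and Pax2 4.90% and 5.67%. The proportions were therefore close in the 2 pools. Effective lengths were 1107 nt in replicate 1 and 1055 nt in replicate 2 for Pax5, and 2114 and 2117 nt for Pax8. Pax5 and Pax8 thus lay closer in counts than in TPM. The Pax5 length depends on the shares of its transcripts, which rest on few reads. Pax5 had 14.1 times the TPM of Pax2 in replicate 1 and 12 times in replicate 2, and Pax8 had 5.32 times in replicate 1 and 4.68 times in replicate 2. Pax2 was detected in both libraries, since at its length 3 counts would give 0.0357 TPM (replicate 1) or 0.0343 TPM (replicate 2).

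Gbx2, the homeobox gene of the hindbrain side of the border and later of the thalamus, was the second most abundant member. Gbx2 (chromosome 1, 89927956 to 89931179, minus strand) had 15.22 TPM in replicate 1 and 19.59 TPM in replicate 2 (17.4 ± 3.09, SD, n = 2), from 628 and 863 counts. Its level was 27.2 times that of Pax2 in replicate 1 and 35.0 times in replicate 2. The thalamus and pretectum list had medians of 23.7 TPM in replicate 1 and 21.7 TPM in replicate 2, and how much of the Gbx2 RNA came from that region was not tested. The spliced transcript Gbx2-201 took 70.7% of the gene's TPM in replicate 1 and 77.1% in replicate 2, and Gbx2-202, annotated as a retained intron, took 29.3% and 22.9%. On the opposite strand D130058E05Rik covers 43.5% of the exon bases of Gbx2, all of them in Gbx2-201, at 0.950 TPM in replicate 1 and 0.990 TPM in replicate 2. Gm13415, opposite Pax8, covers 6.06% of its exon bases but had 0.05 TPM in replicate 1 and 0.02 TPM in replicate 2. Whether read strand was used in counting is not given in the sources used here.

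Pax6, which sets the border between diencephalon and midbrain and later marks granule cell precursors of the cerebellum, had the highest mean level of the members. Pax6 (chromosome 2, 105668900 to 105697364, plus strand) had 19.15 TPM in replicate 1 and 18.40 TPM in replicate 2 (18.8 ± 0.530, SD, n = 2), from 1030 and 947 counts. Its transcripts differ by exon 5a, a cassette of 42 nt within the paired box that changes DNA binding by the protein when it is included. The junction is shown with and without the cassette, with 60 nt of the neighbouring exons on either side, from transcripts Pax6-225 and Pax6-207 of GENCODE M21, and capitals mark exon 5a. On mm10 both span chr2:105683899-105684946 on the plus strand, and exon 5a itself is chr2:105684751-105684792.
Pax6 with exon 5a: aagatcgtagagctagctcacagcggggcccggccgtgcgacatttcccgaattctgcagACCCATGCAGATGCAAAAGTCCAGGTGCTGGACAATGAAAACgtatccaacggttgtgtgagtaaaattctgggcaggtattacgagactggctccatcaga
Pax6 without exon 5a: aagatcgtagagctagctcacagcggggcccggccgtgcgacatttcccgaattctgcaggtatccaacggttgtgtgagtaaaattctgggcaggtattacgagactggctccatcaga

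Most Pax6 RNA lacked exon 5a. Among the transcripts with the same flanking junctions, the 9 with exon 5a took 21.9% of the TPM in replicate 1 and 19.2% in replicate 2 (20.5% ± 1.90, SD, n = 2). The 7 without it took 78.1% in replicate 1 and 80.8% in replicate 2. The authors' posterior means put the share with exon 5a at 26.3% in replicate 1 and 21.6% in replicate 2, so in replicate 1 the choice of estimate moved the share by more than the libraries differed. Pax6-207 was the leading transcript in both libraries, with 29.7% of the gene's TPM in replicate 1 and 27.9% in replicate 2.

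Pax6 transcripts start in several places, and 2 of these carried most of the RNA. The 4 transcripts that start at the upstream end of the gene took 36.1% of its TPM in replicate 1 and 39.3% in replicate 2. A further 8 start between 105675109 and 105676129 and took 40% in replicate 1 and 31.5% in replicate 2. The 6 that start between 105682463 and 105682637, inside an intron of the longer transcripts, took 6.0% in replicate 1 and 4.67% in replicate 2. All other starts together took 17.9% and 24.5%. The upstream start and the second region thus changed order between the pools, while the intronic start took less than either in both.

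Pax5 has alternative first exons, each with its own start codon, and their coding parts are shown because they distinguish the transcripts. In the mouse, exon 1A is known from B lymphocytes, and exon 1B from B lymphocytes, the developing brain and testis. Both sequences are from GENCODE M21 on mm10, minus strand, with the ATG in capitals, and lie at chr4:44710363-44710408 (46 nt, exon 1A) and chr4:44703371-44703413 (43 nt, exon 1B).
Pax5 first exon 1A, coding part: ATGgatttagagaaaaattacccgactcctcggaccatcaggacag
Pax5 first exon 1B, coding part: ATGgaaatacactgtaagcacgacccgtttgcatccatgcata

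The use of these exons was estimated differently in the 2 pools. Transcripts with exon 1A took 46.5% of Pax5 TPM in replicate 1 and 17.3% in replicate 2. Transcripts with exon 1B took 37.9% in replicate 1 and 46.9% in replicate 2. Exon 1A was therefore ahead in replicate 1 and exon 1B ahead in replicate 2. By posterior means exon 1A had 48.7% in replicate 1 and 29.5% in replicate 2, and exon 1B 39.3% and 47.3%, which is the same order in each library. By TPM most of the exon 1A signal came from Pax5-210, which skips the paired box exon shown above and took 40.2% of Pax5 TPM in replicate 1 and 17.3% in replicate 2. By posterior means Pax5-210 had 16.2% in replicate 1 and 5.51% in replicate 2, less than 0.5 of the exon 1A share in each library. With 204 and 171 counts spread over 20 listed transcripts, these shares rest on few reads. Pax5-208, the main transcript with exon 1B, took 37.9% in replicate 1 and 46.9% in replicate 2, and all 636 bases of its first exon lie within 5730488B01Rik on the opposite strand (2.44 TPM in replicate 1 and 2.24 TPM in replicate 2). Pax5-201, whose deposited length of 1616 nt differs from the 8004 nt of the M21 model, took 15.6% and 19.6% and was put in neither class. Its M21 model begins with exon 1A, and counting it there would make the exon 1A share 62.1% in replicate 1 and 36.9% in replicate 2, with the order against exon 1B unchanged in each library.

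Among the other Pax genes, the leading transcript was stable for Pax8 and not for Pax2. Pax8-201 took 67.2% of Pax8 TPM in replicate 1 and 64.0% in replicate 2. For Pax2, Pax2-201 led in replicate 1, with 54.0% there and 21.4% in replicate 2, and Pax2-203 led in replicate 2, with 46.0% in replicate 1 and 64.0% in replicate 2. By TPM, of the 6 members with more than 1 listed transcript, 3 (Pax6, Pax8 and Gbx2) had the same leading transcript in both libraries. The other 3 (Pax2, Pax5 and Pcp2) did not. By posterior means Pax5-208 led for Pax5 in both libraries, while Pax2 and Pcp2 again had different leading transcripts. Sp8 and Skor2 have 1 listed transcript each.

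**Figure D2:**
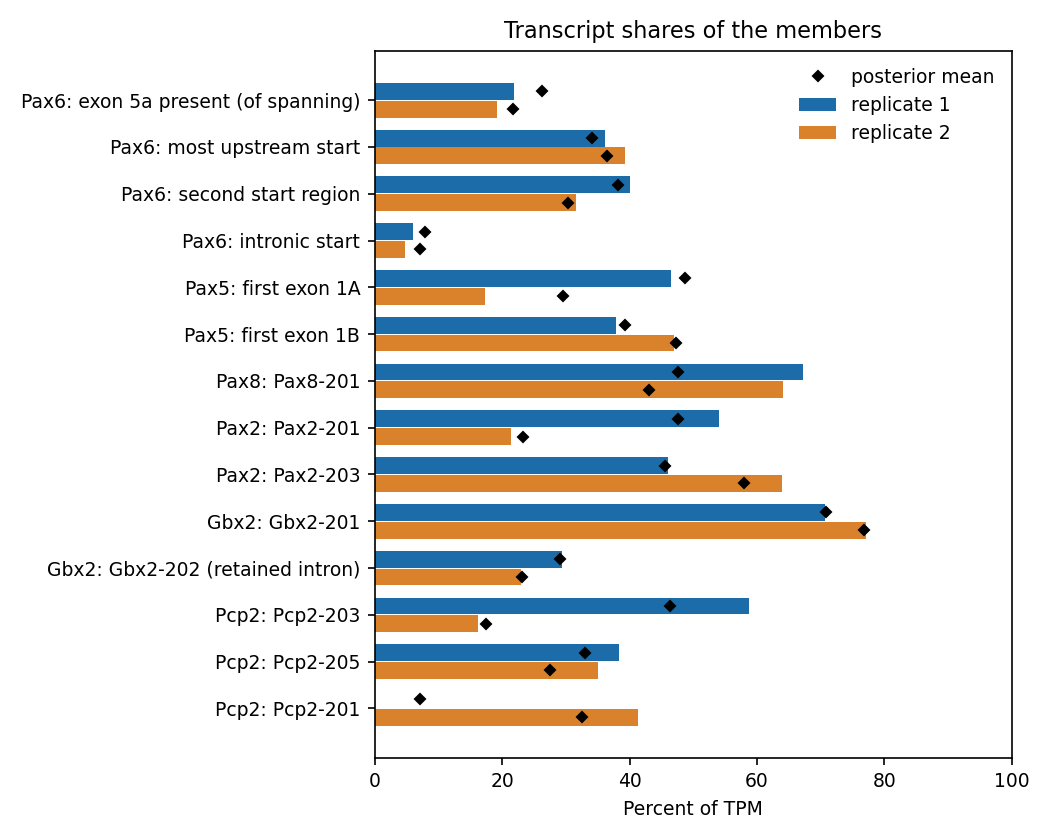
Share of the gene's TPM (percent) taken by transcripts or groups of transcripts of 6 members, bars for replicate 1 and replicate 2, diamonds for the authors' posterior mean. For exon 5a the share is of the transcripts that span it. Shares of Pax6 exon 5a, Pax8-201 and the Gbx2 transcripts are similar in the 2 pools, while the upstream and second Pax6 starts change order. Shares of Pax5 exon 1A, Pax2-201, Pax2-203, Pcp2-203 and Pcp2-201 differ most.

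Sp8 and the Purkinje cell genes Skor2 and Pcp2 all stood below Pax5 in both libraries. Sp8 (chromosome 12, 118846329 to 118852576, plus strand), a zinc finger factor that keeps up Fgf8 expression at signalling centres, had 2.76 TPM in replicate 1 and 2.14 TPM in replicate 2 (2.45 ± 0.438, SD, n = 2), from 282 and 226 counts. Skor2 (chromosome 18, 76856405 to 76900342, plus strand), a transcriptional corepressor that young Purkinje cells need to mature, had 0.130 TPM in replicate 1 and 0.180 TPM in replicate 2 (0.155 ± 0.0354), from 9 and 13 counts. Skor2 was thus near its detection limit, where 3 counts would give 0.0433 TPM (replicate 1) or 0.0415 TPM (replicate 2). Pcp2 (chromosome 8, 3623371 to 3625545, minus strand), also called L7 and used as a marker of Purkinje cells and retinal bipolar cells, had 4.49 TPM in replicate 1 and 1.74 TPM in replicate 2 (3.12 ± 1.94), from 45 and 20 counts. Pcp2 is short, with effective lengths of 426 nt in replicate 1 and 487 nt in replicate 2, so few counts give a level above 1 TPM. The ratio of Pcp2 to Skor2 TPM was 34.5 in replicate 1 and 9.67 in replicate 2, a difference that rests on few counts and was not tested.

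The annotated exons of Pcp2 overlap those of another gene. Pet100, a mitochondrial assembly factor gene on the opposite strand, covers 51.5% of the exon bases of Pcp2 and had 20.32 TPM in replicate 1 and 21.1 TPM in replicate 2. The shares of Pcp2-203, Pcp2-205 and Pcp2-201 bases that lie in Pet100 exons are 38.7%, 34.7% and 36.8%. Pcp2-203 took 58.7% of Pcp2 TPM in replicate 1 and 16.1% in replicate 2, Pcp2-205 took 38.3% and 35.1%, and Pcp2-201 was listed at 0 in replicate 1 and took 41.2% in replicate 2. Posterior SDs of the Pcp2 count were 5.09% of it in replicate 1 and 7.06% in replicate 2, the highest among the members. Whether Pet100 reads add to the Pcp2 count was not tested.

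Next, the 2 pools were compared member by member. A member was called when the adjusted p was below 0.05 and the ratio of counts, scaled by TMM library sizes, was at least 2-fold. All 8 members had the mean of 10 counts required, and 1 was called, Pcp2, higher in replicate 1. Over all 18269 tested genes 1.63% were called, and 0.898% were called as higher in replicate 1. By the adjusted p alone 3 members passed (Gbx2, Sp8 and Pcp2), where 19.3% of all tested genes did. With total-count scaling Pax6 passed as well, with spike-in scaling Pax6 and Pax5 did, which makes 5 members, and by edgeR's exact test 0 passed. The median size of the log2 ratio was 0.33 over the members and 0.11 over all tested genes. Such p-values set 1 library against another and have no replicate check.

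The Pcp2 ratio, replicate 1 over replicate 2, was 2.29 (95% interval 1.34 to 4.16; adjusted p = 0.00988, exact binomial test with Benjamini-Hochberg adjustment). By edgeR's exact test, which adds a spread between the libraries estimated in common for all genes, the adjusted p of Pcp2 was 0.168, and no member was called. Gbx2 was lower in replicate 1, with a ratio of 0.752 (0.677 to 0.834; adjusted p = 1.6e-06, exact binomial test), a difference below 2-fold whose adjusted p by edgeR's exact test was 0.261. Sp8 was higher in replicate 1, with a ratio of 1.29 (1.08 to 1.54; adjusted p = 0.0279 by the exact binomial test and 0.725 by edgeR's exact test). Pax6 had a ratio of 1.12 (1.03 to 1.23; adjusted p = 0.0502, exact binomial test), and Pax5 one of 1.23 (1.00 to 1.52; adjusted p = 0.150, exact binomial test). For Pax8 the interval ran from 0.891 to 1.44, for Pax2 from 0.650 to 1.51 and for Skor2 from 0.270 to 1.81. The intervals of Pax2 and Skor2 take in a 1.5-fold difference in either direction, so a difference of that size was not excluded for them.

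**Figure D3:**
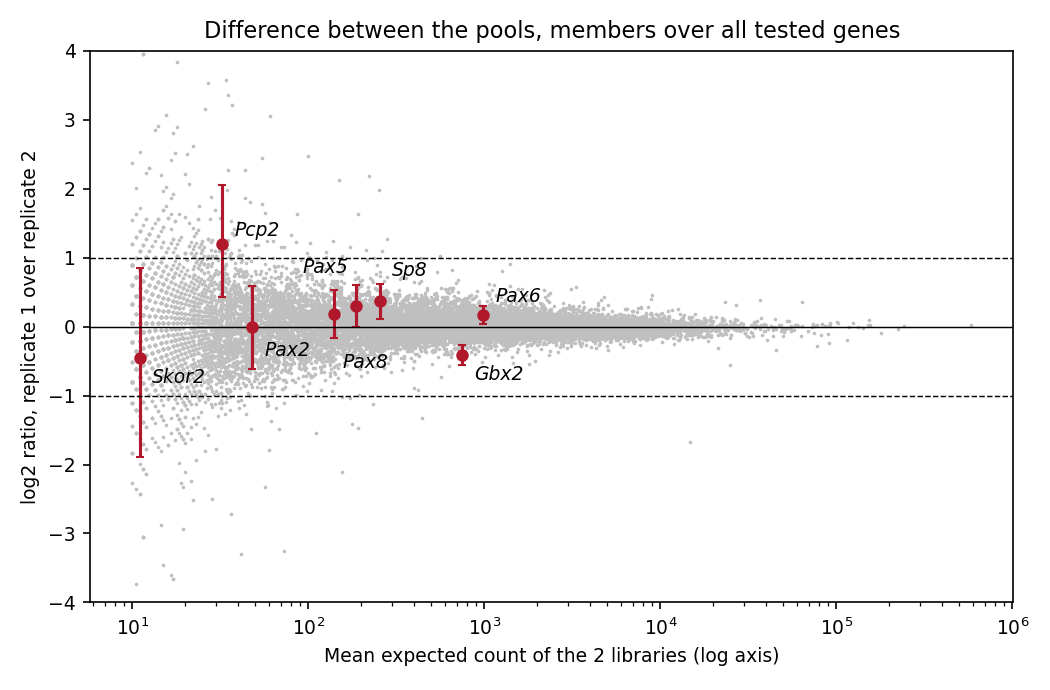
Log2 ratio of replicate 1 over replicate 2 against the mean expected count (log axis) for all 18269 tested genes (grey) and the 8 members (red, bars are 95% intervals of the ratio from counting). Dashed lines mark 2-fold. Pcp2 lies past 2-fold at a mean near the low end of the count axis, while Gbx2, Sp8 and Pax6 lie within 2-fold with intervals that leave out a ratio of 1. Values beyond 4 on the log2 axis are not drawn (46 genes).

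Other isthmic genes, and FGF target genes that are also used widely in the brain, covered a broad range of levels. Of 16 organizer genes, secreted signals and FGF target genes, 14 reached 1 TPM in both libraries, with medians of 5.18 TPM in replicate 1 and 4.38 TPM in replicate 2, and none was called between the pools. The lowest was Fgf8, the organizer's signal, with 0.75 TPM in replicate 1 and 0.940 TPM in replicate 2, from 16 and 19 counts. En2, an engrailed homeobox gene of the border region, had 1.21 TPM in replicate 1 and 0.760 TPM in replicate 2. Pax2, at 0.560 TPM, stood below both. Apart from Otx2, the highest were Cnpy1, an FGF signalling regulator of the isthmus described in zebrafish, with 50.64 TPM in replicate 1 and 35.91 TPM in replicate 2, and the FGF feedback phosphatase gene Dusp6, with 21.26 and 20.34 TPM. Over this list the ratios of replicate 1 over replicate 2 ran from 0.703 (Wnt1) to 1.59 (En2), all within 2-fold.

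Around Skor2 and Pcp2, most genes listed for Purkinje cells reached 1 TPM, and many of them are also used elsewhere in the brain. Of 12 genes of the Purkinje cell and cerebellar GABA lineage, 11 reached 1 TPM in both libraries, with medians of 15 TPM in replicate 1 and 15.1 TPM in replicate 2, and none was called. The highest were Pcp4, a calmodulin-binding peptide gene, with 342 TPM in replicate 1 and 311 TPM in replicate 2, the forkhead gene Foxp2, with 65.0 and 66.0 TPM, and the LIM homeobox gene Lhx5, with 31.1 and 34.7 TPM. The lowest were Ptf1a, the factor that specifies cerebellar GABA neurons, with 0.400 TPM in replicate 1 and 0.210 TPM in replicate 2, and Skor1, the paralog of Skor2, with 1.53 and 1.28 TPM. Ptf1a and Skor2 were thus both under 1 TPM in each library.

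For the rhombic lip and granule cell lineage, where Pax6 is also used, 9 of 10 genes reached 1 TPM in both libraries and none was called. List medians were 8.20 TPM in replicate 1 and 9.56 TPM in replicate 2. Barhl1 led with 64.14 TPM in replicate 1 and 43.84 TPM in replicate 2, followed by the extracellular matrix gene Reln (38.95 and 30.13 TPM) and the homeobox gene Meis1 (35.6 and 31.5 TPM). Atoh1, which starts this lineage, had 1.27 TPM in replicate 1 and 1.17 TPM in replicate 2. Ratios of replicate 1 over replicate 2 ran from 0.569 (Eomes) to 1.45 (Barhl1) among the 9 tested genes, all within 2-fold. The mature granule cell receptor gene Gabra6 had no count in either library. Which cells of the tissue the RNA of the other listed genes came from was not tested.

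Markers of hindbrain nuclei next to the isthmus differed between the pools. Of 4 noradrenergic genes, Dbh, which makes noradrenaline, had 2.95 TPM in replicate 1 and 0.520 TPM in replicate 2, and the noradrenaline transporter gene Slc6a2 had 2.85 and 0.720 TPM. Both were called as higher in replicate 1, Dbh with a ratio of 5.56 (adjusted p = 5.7e-23, exact binomial test) and Slc6a2 with one of 3.93 (adjusted p = 5.6e-41, exact binomial test). Both calls held in edgeR's exact test (adjusted p = 8.0e-16 for Dbh and 8.2e-20 for Slc6a2). The regulator gene Phox2a (0.450 TPM in replicate 1 and 0.0800 TPM in replicate 2) had too few counts to be tested. Of the 8 members 5 were higher in the same pool, among them Pcp2, whose call did not hold in edgeR's exact test. Gbx2 (ratio 0.752), Skor2 (0.727) and Pax2 (0.991) lay below 1. The serotonergic genes were not called. Tph2 had 3.76 TPM in replicate 1 and 5.97 TPM in replicate 2. Slc6a4 had 4.69 and 4.64 TPM, and Fev 1.45 and 1.48 TPM. Tph2 went the other way from Dbh and Slc6a2, with a ratio of 0.631, a difference below 2-fold. Its adjusted p was 1.4e-06 by the exact binomial test and 0.0245 by edgeR's exact test. Summed over the noradrenergic list, replicate 1 had 7.49 TPM and replicate 2 had 1.98 TPM, and its part in the member differences was not tested. Hindbrain Hox genes were near 0, with none of 9 at 1 TPM and Hoxb2 highest by mean, at 0.140 TPM in replicate 1 and 0.270 TPM in replicate 2.

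Marker lists of other tissues that express these Pax genes were mostly below 1 TPM. None of 7 B lymphocyte genes reached 1 TPM in both libraries, the highest being the antigen receptor subunit gene Cd79b at 1.17 TPM in replicate 1 and 0.910 TPM in replicate 2, and the B cell surface gene Ms4a1 (CD20) had no count in replicate 1 and 1 count in replicate 2. Pax5 itself had 7.89 TPM in replicate 1 and 6.70 TPM in replicate 2. Of 5 thyroid genes, 1 (Slc5a5, the iodide transporter gene, 1.60 TPM in replicate 1 and 1.58 TPM in replicate 2) reached 1 TPM, and Tg, Tshr and Foxe1 lay at or below 0.190 TPM. Kidney genes were below 1 TPM in all 5 cases, with Umod, of the kidney tubule, at no count in either library. Of 7 eye genes, 1 reached 1 TPM in both libraries, and Rpe65, of the pigment epithelium, had no count in either. In the telencephalon list Emx1, a homeobox gene of the cortex, was called as higher in replicate 1, with 2.64 TPM there and 1.14 TPM in replicate 2 (adjusted p = 8.1e-05, exact binomial test, and 0.0053 by edgeR's exact test), the same direction as Pcp2.

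**Figure D4:**
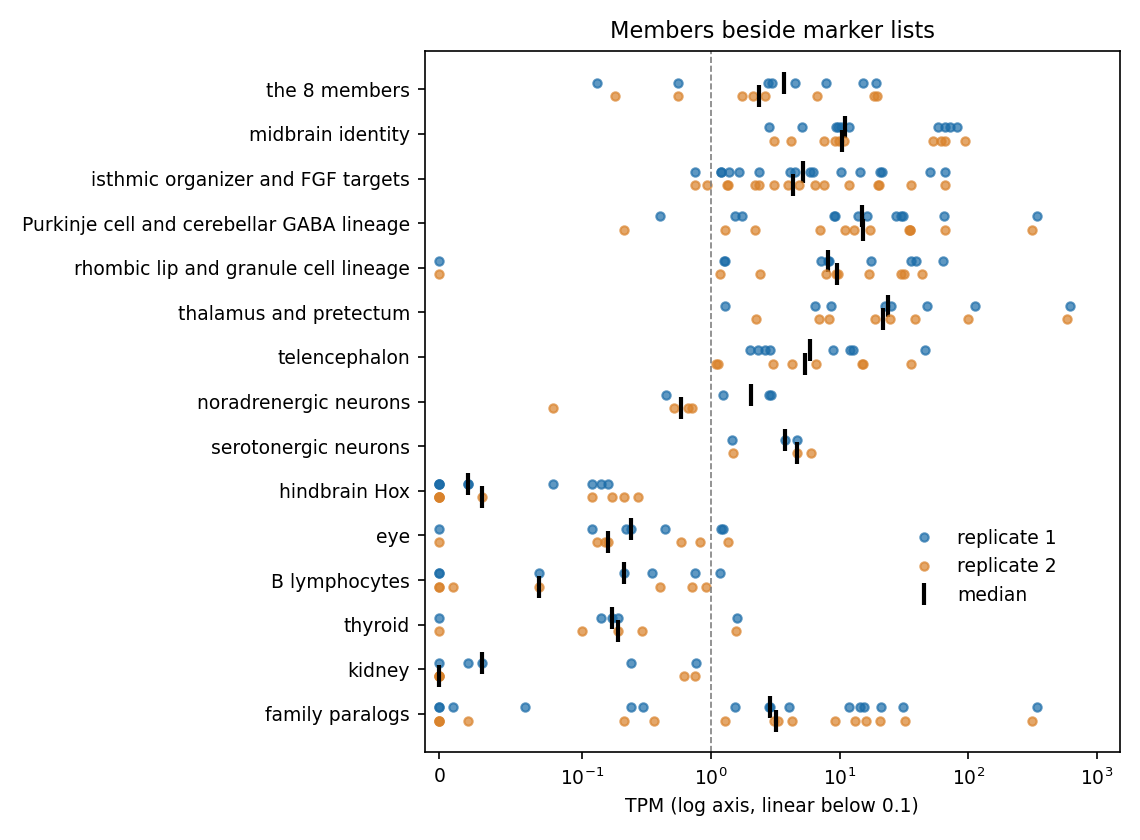
TPM of the 8 members and of the genes of 14 lists (log axis, linear below 0.1 TPM), with points for replicate 1 and replicate 2 and a black bar at each median. Midbrain, thalamic and Purkinje lineage lists lie mostly above the 1 TPM line, and the Hox, B lymphocyte, thyroid, kidney and eye lists mostly below it.

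Within their families the members were not always the highest genes. Of 16 paralogs, 10 reached 1 TPM in both libraries. Pax3 had 11.87 TPM in replicate 1 and 9.25 TPM in replicate 2 and Pax7 2.85 and 3.09 TPM, so Pax3, a factor of the dorsal midbrain, lay below Pax6 and above Pax5 in both libraries. Pax1 and Pax4 had no count in either library. Gbx1, the paralog of Gbx2, had 0.240 TPM in replicate 1 and 0.360 TPM in replicate 2. Among the Sp genes the broadly used Sp3 (31.09 TPM in replicate 1 and 32.27 TPM in replicate 2) and Sp5, a Wnt target (21.14 and 20.7 TPM), stood above Sp8, while Sp9, its closest paralog, had 2.88 TPM in replicate 1 and 4.30 TPM in replicate 2. The log2 ratio, replicate 1 over replicate 2, was -0.45 for Sp9 and 0.37 for Sp8. These ratios had opposite signs, neither reached 2-fold, and neither passed edgeR's exact test (adjusted p = 0.317 for Sp9 and 0.725 for Sp8). Sp6 was called, with 24 counts in replicate 1 and none in replicate 2, which is at least 8.21-fold higher in replicate 1 when 3 counts per library are taken as the floor.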

How the data were processed

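Total RNA longer than 200 nt, 10 ng per library, was sequenced from 2 pools of embryos, per the labels, with spike-in RNA added. Per the file headers, the authors deposited for each library expected counts, TPM and FPKM per gene and per transcript, with posterior means and posterior SDs, and the percent of its gene's TPM that each transcript takes; FPKM was not used. The deposited TPM is scaled over all rows, spike-ins included. The build was mm10 and the annotation GENCODE M4, per the notes deposited beside the tables. No source used here names the aligner or the counting tool, or says whether strand was used.

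Of 69691 rows, the 43346 with an Ensembl gene ID were used, 42462 of them with a symbol; 96 spike-in rows (2.30% of counts in replicate 1 and 2.42% in replicate 2) and 26249 other rows were left out of tests. Expected counts were rounded and compared between the libraries with a two-sided exact binomial test at TMM library sizes (edgeR 4.0.16, R 4.3.3), over 18269 genes with a mean of 10 or more, with Benjamini-Hochberg adjustment; log2 ratios used 0.5 added to each count. Alternatives were DESeq2 1.42.0 size factors, total and spike-in scaling, posterior means, edgeR's exact test with the common dispersion of an intercept-only fit (biological coefficient of variation 0.0651), other filters and thresholds, and each library alone. A quasi-likelihood fit was not possible with 1 library on a side. Levels are means ± SD of 2 libraries; the labels call these biological replicates, each a separate pool. Intervals and floors (3 counts) cover counting error only, since PCR copies could not be told apart.

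Transcript structures came from GENCODE M21 on the same build, and 66 of 68 listed member transcripts had the length of the M21 model. A planned comparison of protein sequences was not made; paired box exons were compared instead. The rest was done in Python 3.11.15 (scipy 1.17.1, numpy 2.4.6, matplotlib 3.10.9, pandas 2.3.3). The binomial test was checked on counts simulated with Poisson counting error alone. That check therefore does not cover spread between libraries beyond counting error. Members and lists were chosen with earlier results of these data known. From lists of more than 5 genes the 3 highest, the 2 lowest and all called genes could be named, and all genes of shorter lists, except a few that are not reported here. Pax3, Pax7, Gbx1, Skor1 and Sp9 were named beside their paralogs after their values were seen. Wnt1 and Eomes were named as ends of a range of ratios, and Sp9 for its ratio in the telencephalon list, also after the values were seen.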

Additional observations from a re-analysis of the deposited data

How the results depend on the processing

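The call of Pcp2 depended on the test: its log2 ratio stayed at 1.20 under edgeR's exact test, where it was no longer called (adjusted p = 0.168), and with other scalings and posterior means its adjusted p ran from 0.00368 to 0.0129. The Pax2 ratio, at -0.01 on the log2 scale, changed sign to 0.07 with spike-in scaling and was not called in either case. The other 38 of 40 alternative ratios kept direction and call, and between 0 (edgeR's exact test) and 5 (spike-in scaling) members passed the adjusted p alone. The number of genes called was 298, against 158 by edgeR's exact test, 67 with a mean count of 50 or more, 526 with a 1.5-fold threshold and 3524 with no fold threshold. Posterior mean TPM moved Pax2 to 0.600, Pax5 to 9.55, Pax6 to 20.6 and Pax8 to 3.58, and TPM over Ensembl genes alone moved Pax2 to 0.594 and Pax6 to 19.9. Posterior means moved the Pax6 share with exon 5a to 23.9% and without it to 76.1%, the upstream start to 35.3%, the intronic start to 7.46%, Pax6-207 to 21.8%, Pax5-201 to 4.79%, Pax5-208 to 27.9% and Pax8-201 to 45.3%. They moved list medians to 14.8 TPM (Purkinje lineage), 0.190 (Hox), 0.390 (eye and thyroid), 0.260 (B lymphocytes), 0.0600 (kidney) and 3.28 (paralogs). At 0.5 TPM, 3 noradrenergic, 2 eye, 2 B lymphocyte and 1 kidney gene passed, and at 2 TPM 0 eye and 0 thyroid genes did. The cause of these shifts was not tested.

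With 1 library left out, Pcp2 ranged from 1.74 TPM (without replicate 1) to 4.49 TPM (without replicate 2), noradrenergic genes at 1 TPM from 0 to 3, eye genes from 1 to 2 and B lymphocyte genes from 0 to 1. The Pax5 exon 1A share ranged from 17.3% to 46.5% (its mean of 31.9% became 49.5% with Pax5-201 counted, an alternative chosen after seeing the data), Pax5-210 with the other transcripts lacking the paired box exon from 17.3% to 40.2%, and Pcp2-203 from 16.1% to 58.7%. No paired analysis was possible because there is 1 group. Depth limits Skor2, Pax2 and Pcp2 most, each with fewer than 50 counts per library.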
